A study of Homo sapiens with 4 samples.

Results

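Histone genes and their variants were measured in RNA recovered with the fragile X protein FMRP and in the lysate from which it was recovered. The members were all probe sets whose only platform gene symbol is that of an H1, H2A, H2B, H3, H4 or macroH2A gene, chosen by the form of the symbol and not by their values. They number 82 probe sets of 58 genes, of 54675 probe sets on the array and 19775 genes with a probe set of their own. Of the 82, 47 probe sets belong to 42 replication-dependent genes, 20 to 7 variant genes, 4 to H2AX, and 11 to 8 other symbols (testis or oocyte linker histones, a testis H3 gene, pseudogenes and H1-10-AS1, an antisense transcript of H1-10 that is no histone gene). Another 28 probe sets carry several gene symbols of which at least 1 is a histone gene, and these are no members.

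The samples were 2 immunoprecipitates (IP) and 2 lysates of HEK293 cells, an established line from human embryonic kidney, in its Flp-In T-REx form. A stable FlagHA-FMRP transgene, which makes FMRP fused to both tags, is induced in it by doxycycline, and every sample, lysates included, came from cells given 1 µg/ml doxycycline for 16 h. Lysates were total RNA set aside from clarified lysis supernatants, and IPs were RNA bound to anti-FLAG beads after washes at 300 mM KCl. Each sample was hybridized to its own Affymetrix array (2 µg of RNA per labelling), and the values are deposited log2 probe set signals. The array medians are nearly equal (4.67 to 4.71), but the sources used here do not state the normalization. The tagged protein was overexpressed beside the cell's own FMRP, only 1 line is labelled, and no IP from cells without the tag is among the samples, so RNA bound by the beads or antibody alone was not measured. No label tells whether replicates are separate cultures, so p-values measure only the spread between these samples, which may be technical.

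Across the 27281 probe sets kept (mean over the 4 arrays at or above 4.70, the median of all probe sets), Pearson's r was 0.990 between the IP arrays, 0.992 between the lysate arrays and 0.875 to 0.904 between an IP and a lysate array, across probe sets that are not independent. Of 6 genes described in HEK293 cells, 5 were kept, with NEFL at 11.79 and 11.92 in the IP and 11.67 and 11.77 in the lysate, while NEFM was below the filter. The summed level of these 6 was 13.53 and 13.58 in the IP and 13.57 and 13.65 in the lysate (log2). Of the 5 kept, INA and ALDH1A2 were lower in the IP (changes -0.54 and -0.80, limma adjusted p = 0.0101 and 0.00225), and NEFL, PAX2 and VIM did not pass. For 7 measured markers of blood, liver, skin, fibroblast and endothelial cells the summed level was 8.40 and 8.54 in the IP and 8.19 and 8.06 in the lysate. The liver marker ALB lay between 2.58 and 3.13 and the leukocyte marker PTPRC between 2.52 and 3.01 on the 4 arrays. The fibroblast marker COL1A1 was brightest, at 7.41 and 7.52 in the IP and 7.20 and 7.09 in the lysate (changes of its other probe sets -0.06 to 3.12). Of 3 kept markers, PECAM1 (endothelial) was higher in the IP (0.53, limma adjusted p = 0.0256), and COL1A1 on this probe set and HBB did not pass. The summed level of these markers of other cell types was higher on both IP arrays. Only 1 cell line is labelled, so this describes marker transcripts, and its bearing on the histone results was not tested.

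Histones are the proteins around which DNA is wrapped: H2A, H2B, H3 and H4 form the core of the nucleosome and H1 binds the linker. Replication-dependent histone genes lie mostly in clusters, are transcribed in S phase, and make short mRNAs without introns that end in a stem-loop in place of a poly(A) tail. Variant genes such as those of H2A.Z, H3.3 and macroH2A are expressed through the cell cycle and make polyadenylated mRNAs, and H2AX can make both kinds. The labelling used for these arrays primes RNA with oligo(dT), so a replication-dependent mRNA is seen mainly where a polyadenylated form of it exists. How far this set the values of replication-dependent genes was not tested, and the array does not tell the forms apart.

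The promoters of both classes were searched for letters of known elements. The 100 bases before the transcription start (RefSeq, GRCh38.p14, gene strand, 5′ to 3′) are shown for a pair of replication-dependent genes whose signal fell in the IP (H2AC25 and H2BC21), the H2A.Z genes, which also fell, and MACROH2A2, which rose. Capitals mark the TATA box letters TATAAA, the CCAAT box letters, and the octamer of H2B promoters, ATTTGCAT, each searched on both strands (ATTGG is the CCAAT box on the other strand).
H2AC25 (chr1:228457874-228457973, minus strand): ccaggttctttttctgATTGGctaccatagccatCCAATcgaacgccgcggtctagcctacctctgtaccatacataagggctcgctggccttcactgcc
H2BC21 (chr1:149886683-149886782, minus strand): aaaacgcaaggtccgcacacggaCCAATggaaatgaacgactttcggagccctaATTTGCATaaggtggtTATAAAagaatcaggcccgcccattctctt
H2AZ1 (chr4:99950276-99950375, minus strand): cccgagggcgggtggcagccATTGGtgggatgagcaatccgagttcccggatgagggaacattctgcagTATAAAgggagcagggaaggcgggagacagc
H2AZ2 (chr7:44848088-44848187, minus strand): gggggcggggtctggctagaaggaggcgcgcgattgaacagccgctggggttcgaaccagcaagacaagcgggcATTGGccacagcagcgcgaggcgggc
MACROH2A2 (chr10:70052746-70052845, plus strand): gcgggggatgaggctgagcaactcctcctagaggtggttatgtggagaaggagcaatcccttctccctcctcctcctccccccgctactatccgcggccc
Among 35116 RefSeq promoters, 4.99% hold the TATA box letters, 18.1% those of the CCAAT box and 0.715% the octamer in this window. Of the 58 member genes 51 have an entry there. Among 39 replication-dependent genes, 21 hold the TATA box letters, 33 the CCAAT box letters and 6 the octamer, and 5 of those 6 are H2B genes (of 13 H2B genes). Of 7 variant genes, 2 hold the TATA box letters, 5 the CCAAT box letters and none the octamer. A match is a string of letters in the window, not a shown binding site. Whether matches go with the change in the IP was not tested, and the promoters shown cannot tell.

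IP and lysate were compared to ask which histone mRNAs were over- or under-represented in RNA recovered with FMRP. Most histone probe sets that could be tested were lower in the IP. Of 40 members kept, 23 fell, 3 rose and 14 did not pass (limma, Benjamini-Hochberg adjusted p at most 0.05 over all kept probe sets), while of all kept probe sets 28.0% fell and 31.5% rose. The median change of the kept members was -0.50 on the log2 scale, against 0.05 over all kept probe sets. Both IP arrays lay below both lysate arrays for 30 of the 40 members and above them for 6, where all kept probe sets gave 37.4% below and 42.7% above. The filter shaped these counts: 5 of the 23 falls had an IP mean under it and were kept only through the lysate, and 1 of the 3 rises had a lysate mean under it and was kept only through the IP. Such members had to differ, so the counts describe the kept members and support nothing further.

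Both classes held falls, and the variant class held 2 of the 3 rises. Of 20 kept replication-dependent probe sets, 11 fell and none rose, with a median change of -0.39 and a range from -1.86 to 0.04, and 4 of the 11 (H4C11, H4C5 and both H4C8 probe sets) were kept only through the lysate. Of 16 kept variant probe sets, 12 fell and 2 rose, with a median of -0.96 and a range from -2.63 to 0.74. Among these 12 falls, 1 (a MACROH2A1 probe set) was kept only through the lysate. Counted once per gene, by the probe set with the highest mean, 9 of 18 replication-dependent genes fell and none rose (median -0.33), and 5 of 7 variant genes fell and 1 rose (median -0.74), with p-values adjusted over all kept probe sets. Of all 13157 genes counted this way, 27.9% fell and 33.8% rose, with a median of 0.08. Whether the classes differ from each other was not tested.

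**Figure D1:**
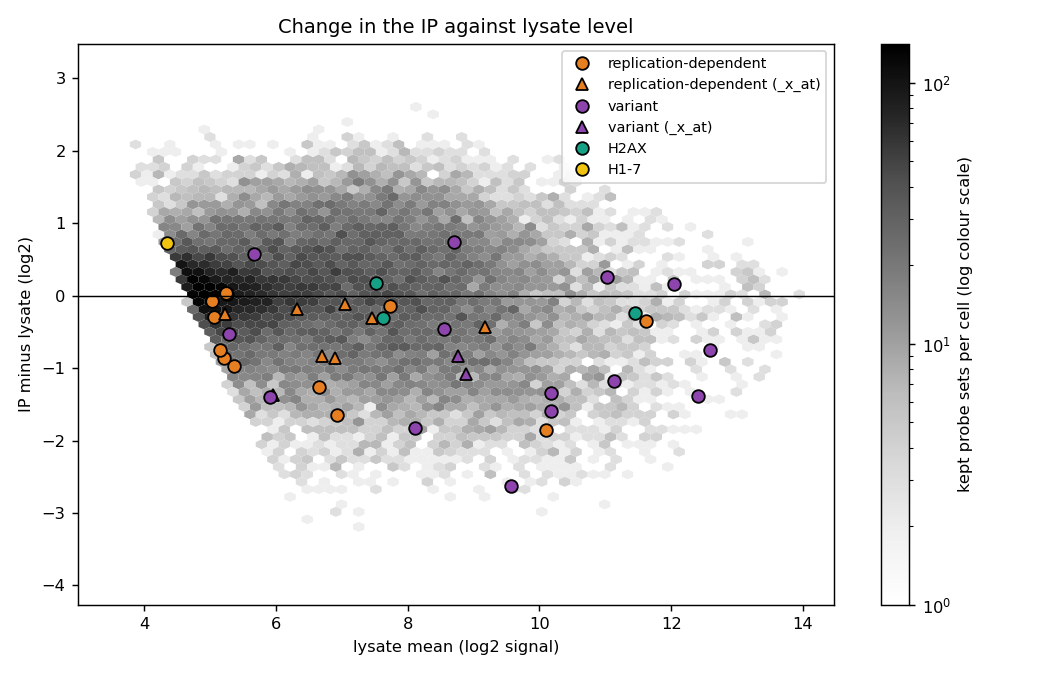
Change in the IP (log2, IP minus lysate) against the lysate mean (log2 signal), with all 27281 kept probe sets as grey cells shaded by their number on a log scale, kept histone members in colour by class, and triangles for _x_at probe sets. Of the 40 coloured points 32 lie below 0 at the deposited scale, and the largest fall is an H2AZ2 probe set at -2.63.

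These changes depend on the scaling. With each array centred on its 18 bacterial hybridization control probe sets, which were 0.48 above the lysate arrays on the IP arrays, the median over all kept probe sets moved to -0.42 and 22.2% of all calls were rises in place of 53.0%. There 31 of 40 members fell and none rose, beside 48.3% falls and 13.8% rises over all kept probe sets. The medians were -0.87 for replication-dependent and -1.44 for variant probe sets. This centring moves every probe set by the same amount, so the gap between a class and all kept probe sets is the same on both scales by construction.

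The H2A.Z genes were lower in the IP on every probe set. H2A.Z is a variant that replaces H2A in nucleosomes at promoters, and H2AZ1 and H2AZ2 encode near-identical proteins. The probe set of H2AZ1 with the highest mean had 11.91 and 11.79 in the IP, against 12.50 and 12.68 in the lysate, and fell by 0.74 (SE 0.13, 1.67-fold lower, limma adjusted p = 0.00239). Its other probe set had 11.06 and 10.99 in the IP, against 12.47 and 12.35 in the lysate, and was 2.61-fold lower (adjusted p = 0.000162). In each case the IP values lay below both lysate values, and the size of the fall differed between the probe sets of the same gene.

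The 4 probe sets of H2AZ2 were all kept and all fell. The one with the highest mean had 8.82 and 8.85 in the IP, against 10.24 and 10.11 in the lysate, and was 2.52-fold lower (adjusted p = 0.000176). A probe set with 8.71 and 8.45 in the IP, against 10.22 and 10.15 in the lysate, was 3.03-fold lower, and one with 6.38 and 6.19 in the IP, against 8.10 and 8.11 in the lysate, was 3.53-fold lower. The largest fall of any member was on a further probe set, with 7.32 and 6.58 in the IP and 9.61 and 9.54 in the lysate, a change of -2.63 (SE 0.23, adjusted p = 0.00016). The IP arrays differed most there, and neither reached a lysate value on any of the 4 probe sets.

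H1-10, which encodes a linker histone expressed outside S phase, had 9.99 and 9.91 in the IP, against 11.06 and 11.21 in the lysate, and was 2.27-fold lower (adjusted p = 0.000282). H2AJ encodes H2A.J, a variant that accumulates in senescent cells. Its 2 kept probe sets had 7.86 and 7.78 in the IP against 8.89 and 8.89 in the lysate, and 7.99 and 7.87 in the IP against 8.84 and 8.69 in the lysate. They were 2.11-fold and 1.79-fold lower (adjusted p = 0.000328 and 0.00131), and both are of the _x_at class, which can cross-hybridize with related transcripts. H3-3A, 1 of the genes for the replacement histone H3.3, had 8.03 and 8.13 in the IP and 8.42 and 8.67 in the lysate, a fall of 0.47 (SE 0.14, adjusted p = 0.0236). The H3-3A change did not pass without IP replicate 1 (-0.41), without lysate replicate 2 (-0.34) or with no filter (adjusted p = 0.0845).

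The 2 rises among variant probe sets were those of macroH2A genes, which also held 2 falls. MacroH2A carries a large extra domain beside its H2A part and is enriched on silent chromatin such as the inactive X chromosome. MACROH2A2 had 9.36 and 9.52 in the IP, against 8.67 and 8.72 in the lysate, and was 1.67-fold higher (SE 0.13 on the log2 scale, adjusted p = 0.00205), with both IP arrays above both lysate arrays. With hybridization control centring its change was 0.26 and did not pass (adjusted p = 0.159), while the median of all kept probe sets was -0.42.

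The probe sets of MACROH2A1 disagreed. The 2 brightest had 12.16 and 12.25 in the IP against 12.03 and 12.05 in the lysate, and 11.28 and 11.27 in the IP against 11.02 and 11.01 in the lysate. Their changes of 0.16 (95% interval -0.12 to 0.45, adjusted p = 0.276) and 0.26 (-0.02 to 0.53, adjusted p = 0.0989) did not pass, and they turned to -0.32 and -0.22 with hybridization control centring. The change of 0.26 passed with a trended prior (adjusted p = 0.0162) and with the stricter filter (0.045). Another, at 6.48 and 6.01 in the IP and 5.79 and 5.54 in the lysate, rose by 0.58 (adjusted p = 0.0309), but not without IP replicate 1 (0.35), without lysate replicate 2 (0.45), with hybridization control centring (0.10) or with no filter (adjusted p = 0.0962). The remaining kept pair fell. The first of them had 4.62 and 4.42 in the IP, against 5.55 and 6.29 in the lysate (change -1.40, adjusted p = 0.00214), and the other had 4.55 and 4.96 in the IP, against 5.21 and 5.36 in the lysate (change -0.53, adjusted p = 0.0294). These IP means are near the middle of each array (4.67 to 4.71), and without a known floor only differences are given. The first of the pair was kept only through its lysate values, so that it fell was set in part by the filter. The fall of 0.53 did not pass without IP replicate 1 (-0.32), lysate replicate 1 (-0.60) or lysate replicate 2 (-0.45), nor with no filter (adjusted p = 0.0946).

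H2AX, whose protein is phosphorylated next to DNA breaks, had 3 kept probe sets and no call. The brightest had 11.14 and 11.30 in the IP, against 11.42 and 11.49 in the lysate, a change of -0.24 (95% interval -0.53 to 0.06, adjusted p = 0.147). Another had 7.13 and 7.50 in the IP and 7.60 and 7.64 in the lysate, a change of -0.30 (-0.67 to 0.06, adjusted p = 0.128) that passed without IP replicate 2 (-0.49) and was -0.12 without IP replicate 1. The last had 7.63 and 7.76 in the IP and 7.46 and 7.58 in the lysate, a change of 0.17 (-0.13 to 0.47, adjusted p = 0.276), which was 0.11 without IP replicate 2 or lysate replicate 1. With hybridization control centring these were -0.71, -0.78 and -0.31, and the first and second of them passed. The brightest also passed with a trended prior (adjusted p = 0.0319). The 3 probe sets did not share a direction on the deposited scale.

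**Figure D2:**
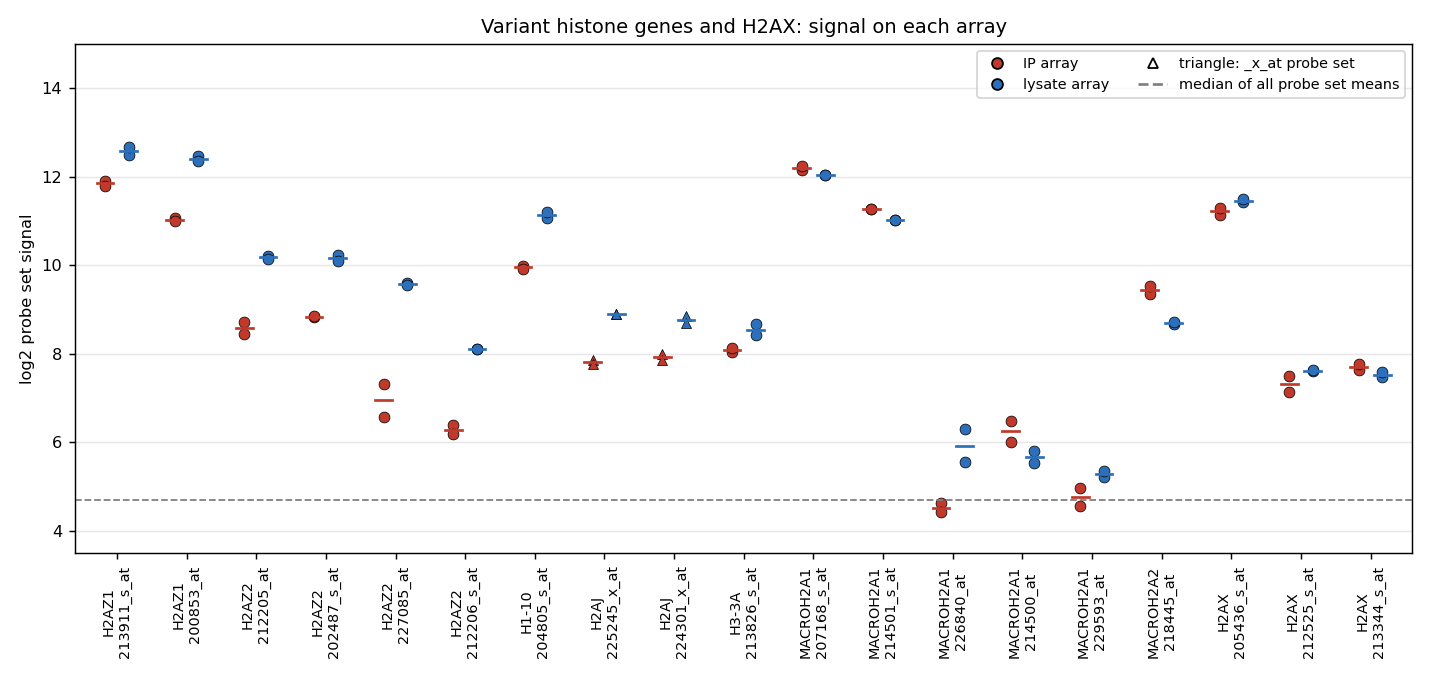
Signal (log2) of the kept probe sets of variant genes and H2AX on each of the 4 arrays, IP in red to the left and lysate in blue to the right, with a bar at each mean, triangles for _x_at probe sets and a dashed line at 4.70. The IP points lie below the lysate points for H2AZ1, H2AZ2, H1-10, H2AJ and H3-3A, and above them for MACROH2A2, which is 0.74 higher in the IP on this scale and 0.26 higher, not passing, with hybridization control centring.

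Among replication-dependent genes, H2AC25, an H2A gene outside the large cluster, fell most. It had 8.39 and 8.09 in the IP, against 10.13 and 10.06 in the lysate, and was 3.62-fold lower (change -1.86, SE 0.14, adjusted p = 0.000122). Its other probe set, of the _x_at class, was left out by the filter, at 4.25 and 4.30 in the IP and 4.44 and 4.72 in the lysate. H2AC6 had 5.46 and 5.35 in the IP, against 6.53 and 6.78 in the lysate, and was 2.39-fold lower (adjusted p = 0.000318). H2AC14, on an _x_at probe set, had 5.92 and 5.82 in the IP, against 6.60 and 6.80 in the lysate, and was 1.78-fold lower (adjusted p = 0.00151). For these 3 genes no IP value reached a lysate value. H2AC4 stood at 4.98 and 5.60 in the IP and 5.39 and 5.14 in the lysate, a change of 0.03 (95% interval -0.48 to 0.54) with overlapping groups; it ranged from -0.28 without IP replicate 2 to 0.34 without IP replicate 1.

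Falls among H2B genes were those of H2BC21, H2BC12, H2BC12L and 1 probe set of H2BC5. H2BC21, known to make polyadenylated as well as stem-loop mRNA, had 5.56 and 5.01 in the IP, against 6.96 and 6.90 in the lysate, and was 3.13-fold lower (SE 0.19 on the log2 scale, adjusted p = 0.000386). H2BC12, which also makes a polyadenylated mRNA, had 11.26 and 11.27 in the IP, against 11.59 and 11.65 in the lysate, and was 1.27-fold lower (adjusted p = 0.0383). H2BC12L, on an _x_at probe set, had 8.70 and 8.79 in the IP and 9.19 and 9.16 in the lysate, and was 1.35-fold lower (adjusted p = 0.0174). The fall of H2BC12 did not pass with any 1 array left out (-0.38 to -0.32), and that of H2BC12L did not pass without IP replicate 1 (-0.39), lysate replicate 1 (-0.42) or lysate replicate 2 (-0.45). With no filter their adjusted p was 0.124 and 0.0714, and neither passed. The groups did not overlap for these 3 genes, but only the H2BC21 call stood with every array left out in turn.

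H2BC5 has a pair of _x_at probe sets that gave different calls. The brighter had 7.15 and 7.15 in the IP and 7.50 and 7.42 in the lysate, a change of -0.31 (95% interval -0.60 to -0.03, adjusted p = 0.056), which passed with quantile normalization (-0.34, adjusted p = 0.0432). The other had 6.04 and 6.01 in the IP, against 6.83 and 6.95 in the lysate, and was 1.82-fold lower (adjusted p = 0.000891). H2BC6, H2BC9 and H2BC15 differed by -0.11, -0.18 and -0.29 and did not pass. Over the H2B family 4 of 8 kept probe sets fell and none rose, beside 28.0% falls and 31.5% rises over all kept probe sets.

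The H4 genes that fell were below the array medians in the IP, so their falls are given as differences only. H4C11, on an _x_at probe set, had 4.55 and 4.61 in the IP, against 5.88 and 6.02 in the lysate (change -1.37, adjusted p = 0.000168). H4C8 had 4.49 and 4.29 in the IP, against 5.04 and 5.67 in the lysate, on its brighter probe set (change -0.97, adjusted p = 0.00662), and fell by 0.74 on the dimmer one (adjusted p = 0.00184). H4C5 had 4.24 and 4.48 in the IP, against 5.36 and 5.07 in the lysate (change -0.86, adjusted p = 0.00276). H4C9 stood at 5.52 and 5.05 in the IP and 5.41 and 5.09 in the lysate, a change of 0.04 (95% interval -0.42 to 0.50), which ranged from -0.20 without IP replicate 1 to 0.28 without IP replicate 2. The 4 H4 probe sets that fell were kept only through their lysate values, so that they fell was set in part by the filter, and H4C9, kept through both groups, overlapped.

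The clustered H1 genes gave no call. H1-2, the gene of a major somatic linker histone, had 7.50 and 7.68 in the IP and 7.74 and 7.73 in the lysate, a change of -0.14 (95% interval -0.44 to 0.16, adjusted p = 0.365). H1-3 had 5.22 and 4.72 in the IP and 5.17 and 4.90 in the lysate, a change of -0.07 (-0.53 to 0.40). The only kept replication-dependent H3 probe set, of H3C8 and the _x_at class, had 4.95 and 5.02 in the IP and 5.25 and 5.22 in the lysate, a change of -0.25 (-0.53 to 0.04, adjusted p = 0.115). These intervals include 0, and they also include falls of the size seen for H2BC12.

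**Figure D3:**
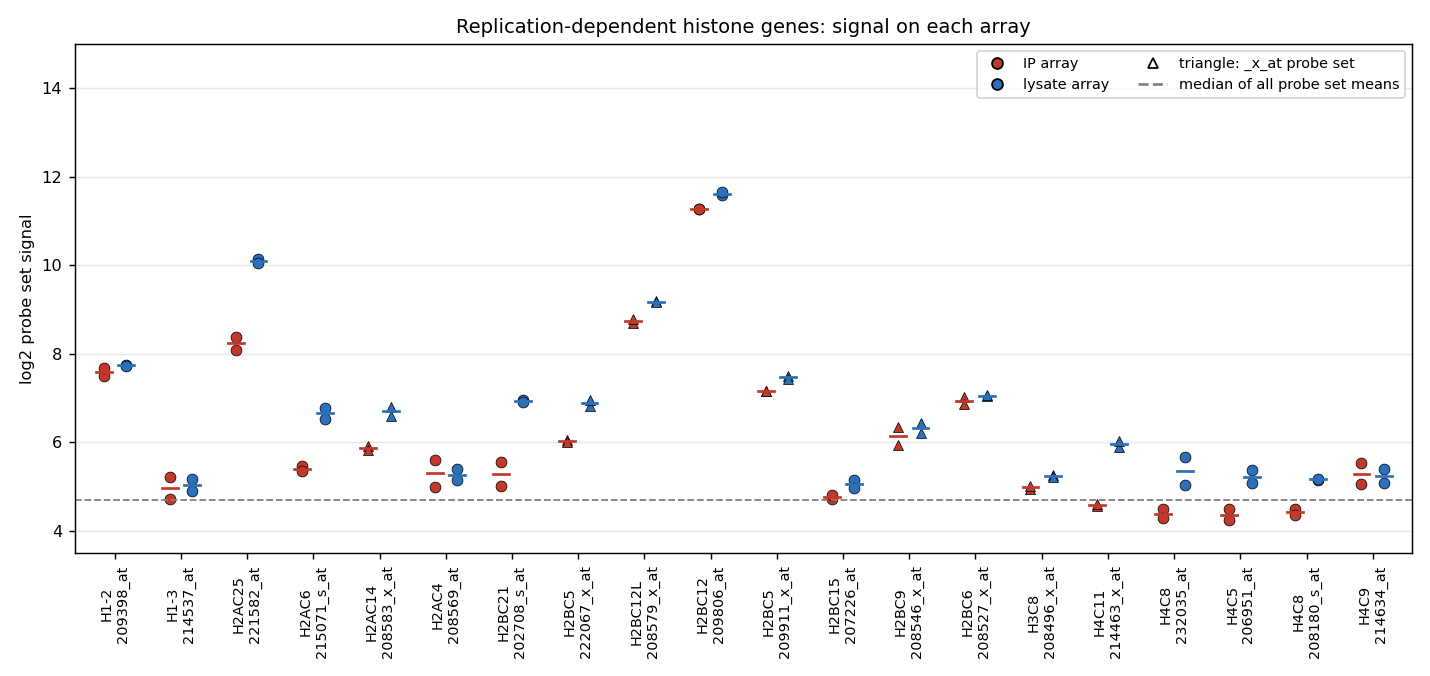
Signal (log2) of the 20 kept probe sets of replication-dependent genes on each of the 4 arrays, IP in red to the left and lysate in blue to the right, with a bar at each mean, triangles for _x_at probe sets and a dashed line at 4.70. The groups are apart, with the IP lower, for 16 of the 20, widest for H2AC25 (-1.86) and H2BC21 (-1.64), and they overlap for the other 4. Of the 16, H4C11, H4C5 and both H4C8 probe sets were kept only through the lysate. Among all kept probe sets, 37.4% had both IP arrays below both lysate arrays and 42.7% had them above.

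The remaining rise was that of H1-7, a linker histone gene of the testis, named after its values were seen. It had 5.27 and 4.89 in the IP, against 4.54 and 4.16 in the lysate, a change of 0.73 (adjusted p = 0.0127) that did not pass without lysate replicate 2 (0.54), with hybridization control centring (0.25) or with no filter (adjusted p = 0.0507). Its other 2 probe sets were below the filter, with differences of 0.14 and -0.04. With a lysate mean of 4.35 it was kept only through the IP and is given no fold.

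The filter left out 42 members, 27 of them replication-dependent, and their values lay between 2.02 and 5.14 on all arrays. Only 18 of the 42 replication-dependent genes had a kept probe set, against 7 of 7 variant genes. When all probe sets were tested with no filter, 7 of these 42 members fell, 1 rose and 34 did not pass, beside 14.1% falls and 14.5% rises over all probe sets tested. That share includes the brighter probe sets, and calls among left-out probe sets alone were not counted. Both IP arrays lay below both lysate arrays for 12 of the 42 members and above them for 8. Of all 27332 left-out probe sets, 5413 lay below and 7379 above. The falls were on probe sets of H2AC8, H2AC15, H2AC17, H2BC4, H2BC11, H3C2 and H2AJ, from -1.28 (H3C2) to -0.69 (H2BC11), and the rise was that of the antisense transcript H1-10-AS1 (0.56, adjusted p = 0.036), opposite to the fall of H1-10. These genes were named after their values were seen, and at these low signals a difference is hard to read.

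Near-identical histone genes can share probes, which the _x_at class marks. Of 12 _x_at members, 10 were kept, 6 fell and none rose, with a median of -0.63. Over all 2710 kept _x_at probe sets, 714 fell and 640 rose, with a median of -0.01. With _x_at members set aside, 7 of 12 replication-dependent probe sets fell (median -0.55) and 10 of 14 variant probe sets fell, with 2 rises (median -0.96). Of the 17 kept members with neither an _x, _s nor _a mark, 9 fell and 3 rose (median -0.35). All such kept probe sets gave 27.9% falls and 30.7% rises, with a median of 0.04. Signals on marked probe sets may come from several histone genes, and the files do not tell these apart.

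Other genes of histone supply were taken from a list of 67 that also holds 6 S phase and cycling genes. Of 64 genes kept, 34 rose and 16 fell, with a median of 0.47, beside 33.8% rises and 27.9% falls over all genes. Without the S phase and cycling genes, 30 of 58 rose and 15 fell, with a median of 0.40. With hybridization control centring, which moves every gene down by the same amount, 20 of the 64 rose and 23 fell (median -0.01), beside 13.8% rises and 48.3% falls over all kept probe sets. Among 16 genes for the processing and decay of histone mRNA 3′ ends, 8 rose and 3 fell, but 3 rose and 8 fell with hybridization control centring, and without lysate replicate 1 only 1 fell. SLBP, which encodes the stem-loop binding protein, had 11.40 and 11.47 in the IP, against 10.63 and 10.61 in the lysate (1.75-fold higher, adjusted p = 0.00105), but did not pass with hybridization control centring (0.33). LSM10, a subunit gene of the U7 snRNP that directs cleavage of histone mRNA, had 8.01 and 8.06 in the IP, against 8.97 and 8.93 in the lysate (1.90-fold lower, adjusted p = 0.000592). The 2 genes lie outside the naming rule and were named after their values were seen.

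Among 30 genes for histone chaperones and deposition, 18 rose and 6 fell (12 and 8 with hybridization control centring). Over all genes 33.8% rose and 27.9% fell (13.8% and 48.3% of all kept probe sets with that centring). HIRA, the chaperone gene that deposits H3.3, had 10.87 and 10.91 in the IP, against 8.34 and 8.50 in the lysate, and was 5.54-fold higher (adjusted p = 0.000113). ASF1A, encoding a chaperone that hands H3 and H4 to HIRA and other complexes, had 5.89 and 5.59 in the IP, against 8.43 and 8.15 in the lysate, and was 5.86-fold lower (adjusted p = 0.000113). The change of its other kept probe set was -1.94. ANP32E, encoding a chaperone that removes H2A.Z, was 2.81-fold lower, with its other probe sets at -3.91 and -0.98, and DEK was 2.20-fold lower. Genes that act in 1 deposition pathway thus moved in opposite directions.

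Of 4 kept genes for the centromeric H3 variant and its loading, 3 fell and none rose (2 falls without lysate replicate 1), with CENPA itself at 6.73 and 6.74 in the IP against 7.44 and 7.65 in the lysate (change -0.81, adjusted p = 0.00153). Of 6 S phase and cycling genes 4 rose and 1 fell. Over all genes 33.8% rose and 27.9% fell, and with hybridization control centring 13.8% and 48.3% of all kept probe sets did. The roles in this paragraph hold 4 to 8 genes each, so their counts are only described. CENPA above and NPAT below lie outside the naming rule and were named after their values were seen. MKI67, the gene of the Ki-67 antigen, was 4.87-fold higher (change 2.28), at 10.43 and 10.50 in the IP and 8.38 and 7.98 in the lysate. Its other kept probe sets changed by 1.61 to 1.95. TOP2A, a topoisomerase gene, was 4.11-fold higher (change 2.04), at 12.59 and 12.66 in the IP and 10.74 and 10.42 in the lysate. Its other kept probe set changed by 1.11. Of 8 genes for histone gene transcription 4 rose and 3 fell (1 and 3 with hybridization control centring), among the falls NPAT, the coactivator of replication-dependent histone genes, with a change of -0.69 (adjusted p = 0.0108) that did not pass without lysate replicate 1 (-0.51).

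**Figure D4:**
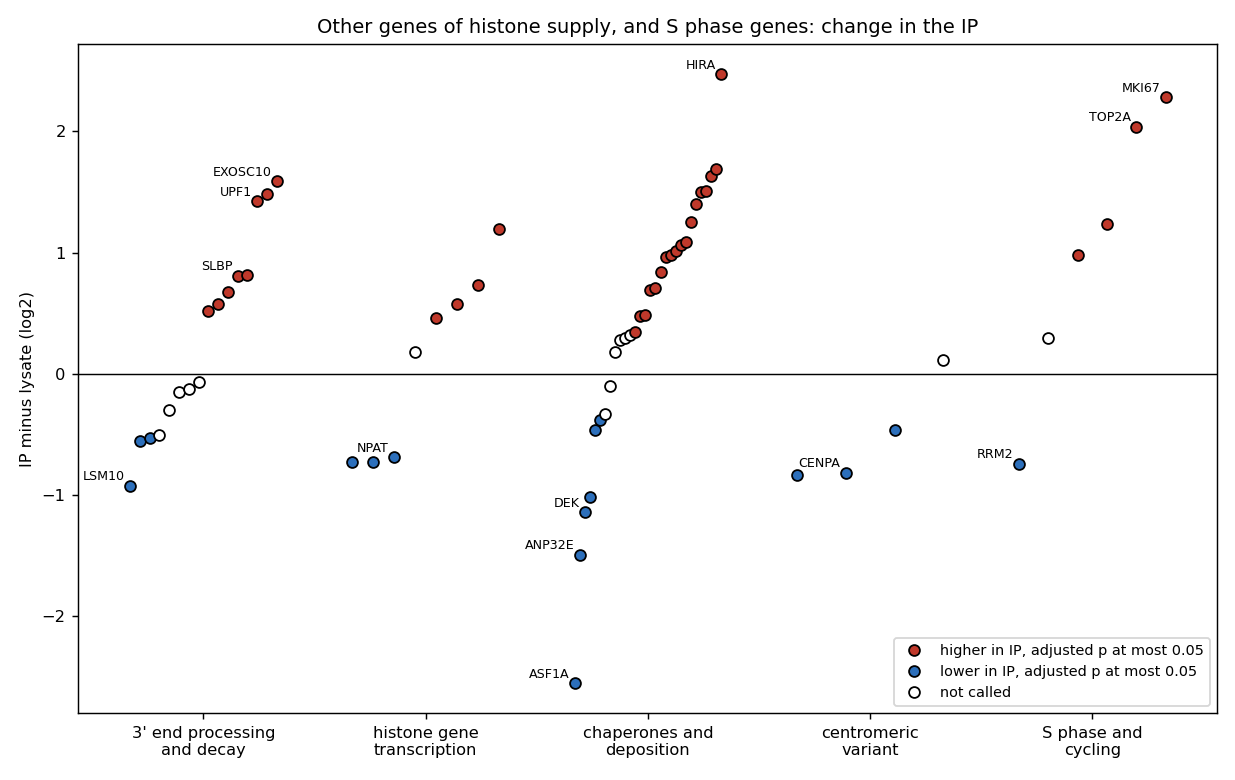
Change in the IP (log2, IP minus lysate) of 64 other genes (58 of histone supply and 6 of S phase and cycling), 1 point per gene, ordered by size within 5 roles, with called rises in red, called falls in blue and uncalled genes open. At the deposited scale 34 points are called rises and 16 called falls, from HIRA at 2.47 to ASF1A at -2.55, beside 33.8% rises and 27.9% falls over all genes. With hybridization control centring the counts are 20 and 23, beside 13.8% rises and 48.3% falls over all kept probe sets.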

How the data were processed

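Per the file's values, the authors deposited log2 probe set signals of 4 Affymetrix arrays, taken as log2 because they span a log range with array medians at 4.67 to 4.71. The sources used here do not give the background correction, summary method or normalization, and the table holds no detection calls. Precision is limited by the number of arrays. The platform annotation gives 41091 of the 54675 probe sets 1 gene symbol, 1801 several and 11721 none, beside 62 controls. All 82 members matched the GRCh38.p14 gene table by Entrez number. No array was identical to another.

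IP minus lysate was fitted per probe set with limma 3.58.1 (lmFit and eBayes in R 4.3.3, with no covariate and with 2 residual and 4.82 prior degrees of freedom) on 27281 kept probe sets, with Benjamini-Hochberg adjustment over all of them. Figures used matplotlib 3.10.9 and pandas 2.3.3. The fit was tested on simulated data. Members and lists were chosen with earlier results of these data known. Named were all kept variant and H2AX probe sets, the replication-dependent genes with the 10 largest falls and up to 5 rises, and the largest changes of the supply list, up to 3 each way. Other names are marked or belong to a whole family described. Alternatives covered scaling, filter, probe set choice, replicate block, spread estimate, threshold and each array left out.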

Additional observations from a re-analysis of the deposited data

How the results depend on the processing

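The main counts were 23 falls and 3 rises among 40 kept members (11 and 0 of replication-dependent, 12 and 2 of variant probe sets), with medians of -0.50, -0.39 and -0.96. Of all kept probe sets 28.0% fell and 31.5% rose. With each array left out in turn, falls ranged from 19 to 23 (9 to 10 replication-dependent, 10 to 12 variant), rises from 1 to 3 (1 to 2 variant), and the medians from -0.60 to -0.40, -0.43 to -0.37 and -1.01 to -0.91. With hybridization control centring there were no rises (0 in all, 0 variant), 17 replication-dependent falls, and medians of -0.97, -0.87 and -1.44. On that scale 48.3% of all kept probe sets fell and 13.8% rose. With no filter there was 1 variant rise, and the medians were -0.24 over all and -0.79 for variants. In that setting 14.1% of all probe sets fell and 14.5% rose. The stricter filter kept 22 members, of which 14 fell (4 of 6 replication-dependent), with a variant median of -1.07. Among all probe sets it kept, 35.5% fell and 42.0% rose. The probe set with the highest mean per gene was refitted and adjusted over those 13157 genes alone. It gave 15 falls among 27 histone genes, 5 of them variant, 1 variant rise and a variant median of -0.74. All genes in that fit gave 28.8% falls and 35.0% rises. The mean of each gene's kept probe sets gave 15 falls among 27 genes, 5 of them variant, and 1 variant rise. By that mean 29.5% of all genes fell and 34.4% rose. Unique probe sets gave 9 falls among 17 members, 4 replication-dependent and 5 variant, with a variant median of -1.38. All kept unique probe sets gave 27.6% falls and 30.2% rises. At an adjusted p of 0.01 there was 1 rise, a variant, beside 21.8% falls and 23.7% rises over all kept probe sets. The number of members tested differs between these settings, and the cause of the shifts was not tested.

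Of 416 values for 34 named probe sets, 364 kept direction and side of the threshold, 30 lost and 12 gained the call and 10 turned, none of them a called change. With hybridization control centring the H2AX probe set that was higher in the IP moved to -0.31, the 2 brightest MACROH2A1 probe sets to -0.32 and -0.22, H2AC4 to -0.45 and H4C9 to -0.44. MACROH2A1 was -0.18 with the mean of its probe sets. H2AC4 (0.34 without IP replicate 1) turned to -0.28 and -0.10 without IP replicate 2 or lysate replicate 2, and H4C9 (0.28 without IP replicate 2) to -0.20 and -0.12 without IP replicate 1 or lysate replicate 2. With the replicate number as a block, 23 members fell and 3 rose and no named call changed. The labels do not say whether samples of the same number are pairs, so they were not treated as pairs. Their deviations gave r = 0.06 over probe sets, which with 2 samples per group cannot decide this. Low signals near 4.70 limit what can be said of most replication-dependent genes.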

Other observations

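The probe sets that carry several histone symbols, which belong to no single gene, mostly fell in the IP. Of 28, 19 were kept, 17 fell and none rose, with a median change of -0.96, beside 28.0% falls over all kept probe sets, and with each array left out in turn 14 to 16 fell. All 8 that name both H3-3A and H3-3B, the genes of H3.3, fell, by 0.43 to 1.25 on the log2 scale. The brightest of those 8 had 12.67 and 12.62 in the IP, against 13.29 and 13.25 in the lysate (1.54-fold lower, limma adjusted p = 0.00329). Of 5 probe sets that list the same 14 H4 genes, 3 were kept and 2 of them fell. The brightest had 12.29 and 12.32 in the IP, against 13.52 and 13.57 in the lysate, and was 2.35-fold lower (adjusted p = 0.000201). The kept _x_at one differed by -0.66 and did not pass (adjusted p = 0.0721), and those left out differed by 0.18 and -0.50. Of 3 kept probe sets of H2AC18 and H2AC19, a pair of near-identical H2A genes, 2 fell. One had 7.82 and 7.40 in the IP, against 10.01 and 9.98 in the lysate, and was 5.22-fold lower (adjusted p = 0.000113). The _x_at one was 3.04-fold lower, and the other differed by 0.06 and did not pass (adjusted p = 0.723), with overlapping groups. These probe sets were named after their values were seen, and which gene of each group gave the signal is not known.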
